A study of Mus musculus with 12 samples.

Results

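The mitochondrial ribosomal proteins are described here in mouse cardiac stem cell cultures. The rule took every gene of the differentiation table whose symbol is Mrpl or Mrps followed by a number and at most a single letter, and it found 76 of 34174 genes. By their place in the ribosome, 49 belong to the large subunit and 26 to the small subunit. The last, Mrps36, carries the symbol but is known as a component of the oxoglutarate dehydrogenase complex. The cells, heart-derived cells labelled Cardiac Stem Cells from C57BL/6 mice, were grown on gelatin in serum-containing medium at 21% oxygen. There were 3 cultures labelled c-kitCre, a knock-in of the Cre recombinase at the Kit locus, and 3 cultures labelled wild-type. Each culture had 2 RNA libraries in the labels and a single value per gene in the table, so n is 3 cultures per group in every comparison. Age, sex and the animal or clone behind each numbered culture are not in the labels. The p-values then measure only how far these cultures spread, which may be technical.

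Mitochondria keep a small genome of their own, and a ribosome inside the organelle translates its messenger RNAs into core subunits of the respiratory chain and of ATP synthase. The RNA of this ribosome is made in the organelle, whereas all of its proteins are encoded in the nucleus, made in the cytosol and imported. Some of these proteins have a counterpart in bacterial ribosomes, and others are found only in mitochondria. The heart depends heavily on oxidative phosphorylation, and inherited defects of several of these proteins cause cardiomyopathy in humans.

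Summed raw values ran from 22371439 to 35963488 in the cultures labelled c-kitCre and from 32392712 to 35043499 in those labelled wild-type. Scaled reads are used as the unit of level: raw values multiplied by each culture's factor (0.825 to 1.52), which the authors' normalized values contain. Kit, the gene that holds Cre, goes against the labels. Its scaled reads were 1732, 1738 and 1603 in the cultures labelled c-kitCre and 3.38, 1.55 and 1.17 in those labelled wild-type (limma, adjusted p = 3.67e-05; exact two-sided permutation p = 0.1, the smallest that 3 against 3 cultures allow). A knock-in at the locus predicts no higher Kit level in its carriers, so every direction below rests on the labels as given. Of the 11 markers of the labelled cell type, 6 were higher (54.5%), 3 were lower (27.3%) and 2 passed no threshold. By the same call, 16.2% of all genes tested were higher and 19.3% were lower. Kit, Hand2, Tbx5, Gata4, Isl1 and Pdgfra were the higher ones, with Gata4 at means of 2168 ± 179 scaled reads in the cultures labelled c-kitCre and 807 ± 25.9 in those labelled wild-type (SD, n = 3). The lower ones were Ly6a, at 729 ± 45.8 in c-kitCre and 3002 ± 272 in wild-type, Bmi1, at 1893 ± 286 in c-kitCre and 3497 ± 560 in wild-type, and Tert, at 2.03 ± 1.99 in c-kitCre and 59.0 ± 36.4 in wild-type. Nkx2-5 stayed under 20 in all 6 cultures. The wild-type values of Kit and the c-kitCre mean of Tert lay below 4.41 scaled reads, the floor of the authors' normalized values.

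Most mitochondrial ribosomal protein genes were lower in the cultures labelled c-kitCre. All 76 passed the filter on low values. Of them 48 were lower, 2 were higher and 26 did not pass the threshold, an adjusted p under 0.05 over the 24151 genes tested (limma). By the same call, 19.3% of all genes tested were lower and 16.2% were higher. Among the 13456 genes that averaged at least 50 scaled reads, the shares were 29.2% lower and 19.4% higher. The members' median log2 difference, c-kitCre minus wild-type, was -0.79, beside a median of 0.04 over all genes tested. It was -0.14 over the genes averaging at least 50. Centring each culture on the median of all genes tested moved that median to -0.31 and gave 8578 lower and 2821 higher genes, with 64 lower and 1 higher member and a members' median of -1.14. Centring on the genes averaging at least 50 moved it to 0.26 and gave 3792 lower and 5475 higher genes, with 45 lower and 5 higher members and a members' median of -0.57. On the main scale, 64 members had a negative difference and 12 a positive one, and 28 of the 48 lower members differed by at least 2-fold.

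Summed over the 76 genes, the cultures labelled c-kitCre held 58139, 60646 and 53764 scaled reads, and the cultures labelled wild-type held 109502, 92075 and 90682. The groups did not overlap. The means were 57516 ± 3483 in the cultures labelled c-kitCre and 97419 ± 10487 in those labelled wild-type (SD, n = 3), so that the c-kitCre mean was 59.0% of the wild-type mean. As a share of all scaled reads of a culture, in parts per 1000000, the sum was 1867, 1787 and 1915 in the cultures labelled c-kitCre, against 3203, 3180 and 3152 in those labelled wild-type. In bulk RNA, fewer cells of a type and less RNA per cell cannot be told apart.

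**Figure D1:**
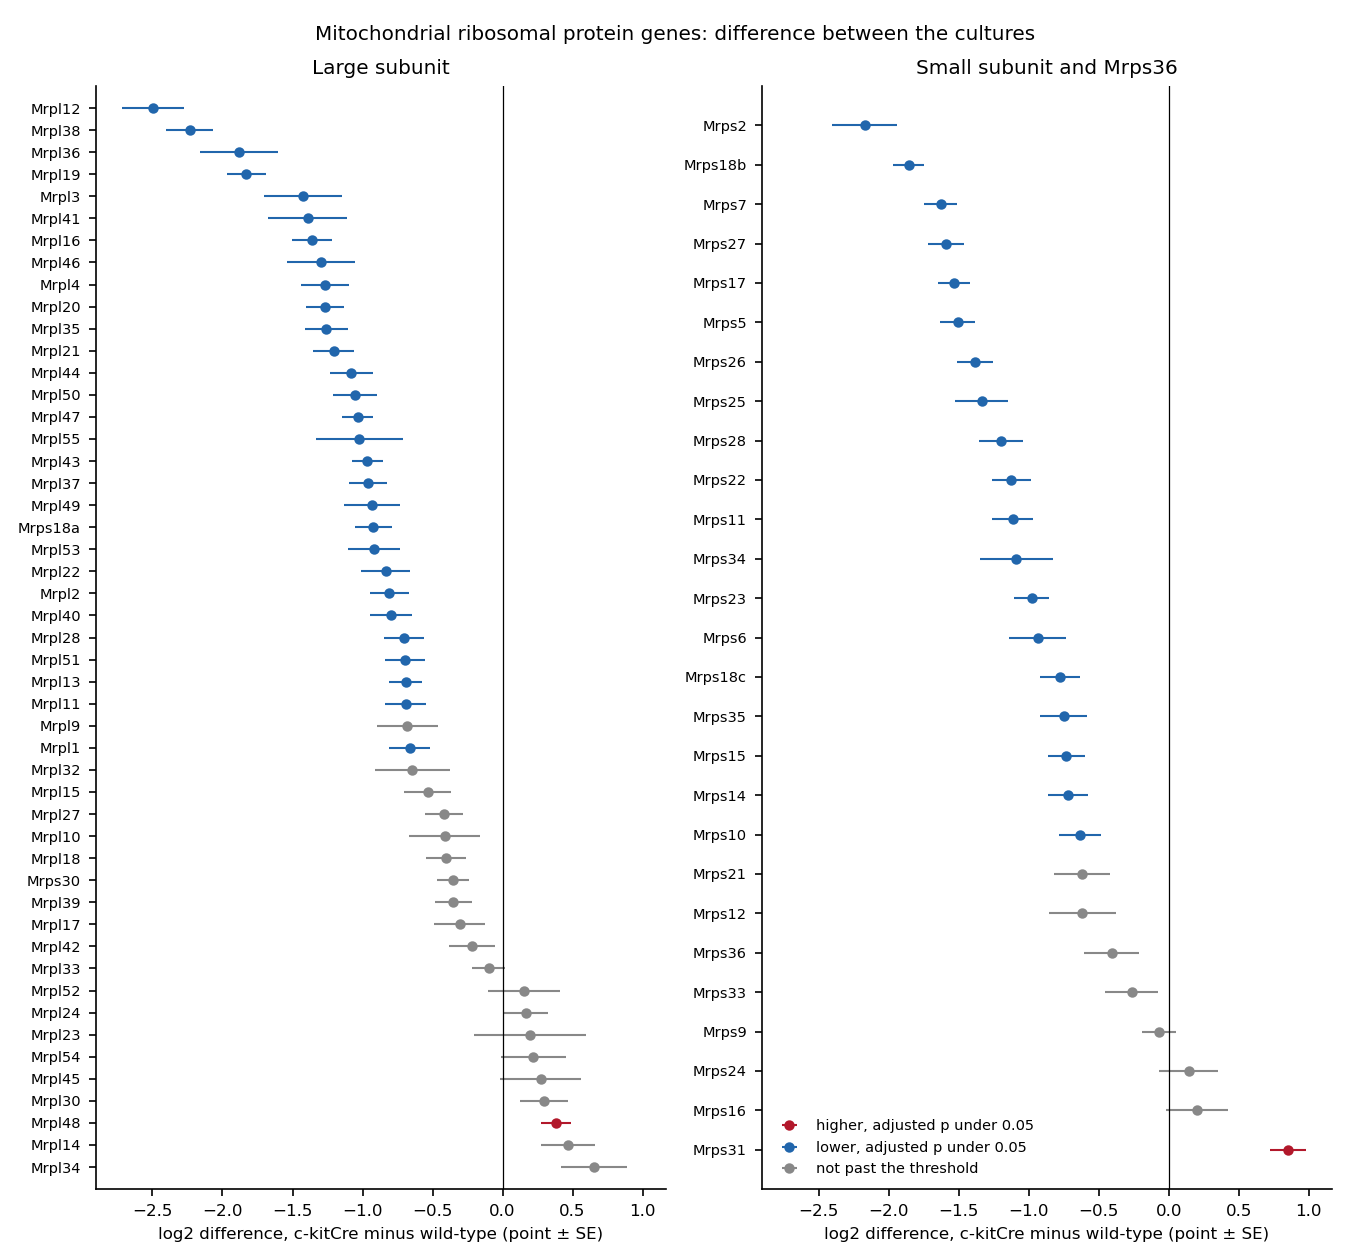
Log2 difference, c-kitCre minus wild-type, of each mitochondrial ribosomal protein gene, as point and standard error (limma, 3 cultures each), with the large subunit at the left and the small subunit with Mrps36 at the right. Blue marks the 48 lower genes, red the 2 higher genes and grey the 26 past no threshold; the values run from -2.50 for Mrpl12 to 0.85 for Mrps31.

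In the large subunit 29 of 49 members were lower and 1 was higher, with a median log2 difference of -0.70. The steepest fall of all members was that of Mrpl12, a protein of the stalk that contacts translation factors, which in human cells also binds the mitochondrial RNA polymerase. Mrpl12 (chromosome 11, 120484613 to 120489065, plus strand, build mm10) had 383, 286 and 444 scaled reads in the cultures labelled c-kitCre and 2575, 1788 and 1914 in those labelled wild-type. The highest c-kitCre value lay far below the lowest wild-type value. The log2 difference was -2.50 ± 0.22 (SE; limma, adjusted p = 0.000526), and the c-kitCre mean was 17.7% of the wild-type mean. The exons of Mrpl12 share more than 10% of their length with the predicted gene Gm16755, and whether the counting used strand is not given in the sources used here, so part of these reads may belong to the neighbour.

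The stalk and its base had 5 members, of which 3 were lower. Beside Mrpl12 these were Mrpl53, at -0.92 ± 0.19, and Mrpl11, the protein at the base of the stalk, at -0.69 ± 0.15. Mrpl10, the protein that anchors the stalk, had a log2 difference of -0.41 ± 0.25 and did not pass the threshold, with groups that overlapped. Mrpl54 had 775, 1066 and 817 scaled reads in the cultures labelled c-kitCre and 557, 841 and 912 in those labelled wild-type. Its difference of 0.22 ± 0.23 was within the spread between cultures, and it turned to -0.13 when each culture was centred on the median of all genes tested.

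Among the 14 large-subunit proteins found only in mitochondria, 10 were lower and 1 was higher, with a median of -0.93. Mrpl38, a protein of the central protuberance, had the second largest fall of all members. Mrpl38 (chromosome 11, 116131817 to 116138868, minus strand) had 751, 593 and 732 scaled reads in the cultures labelled c-kitCre, against 3888, 3036 and 2884 in those labelled wild-type. Its log2 difference was -2.23 ± 0.17 (limma, adjusted p = 0.000296). Other proteins of the same protuberance moved less: Mrpl46 differed by -1.30 ± 0.24 and Mrpl40 by -0.80 ± 0.15, both lower, whereas Mrpl48, described further below, was higher.

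Of the 23 large-subunit core proteins with a bacterial counterpart, 13 were lower and none was higher, with a median of -0.69. Mrpl36, a small zinc-binding protein of the core, had 180, 112 and 201 scaled reads in the cultures labelled c-kitCre and 727, 511 and 549 in those labelled wild-type, a difference of -1.88 ± 0.28. Mrpl19, which lies at the interface of the subunits, had 549, 440 and 574 in the cultures labelled c-kitCre and 1720, 1879 and 1925 in those labelled wild-type, a difference of -1.83 ± 0.14. In both genes every c-kitCre culture was below every wild-type culture. Mrpl28, another core protein, fell less, with 1393, 1374 and 1229 scaled reads in the cultures labelled c-kitCre and 2554, 1943 and 2047 in those labelled wild-type (-0.70 ± 0.14; limma, adjusted p = 0.011). The 7 proteins around the exit tunnel held 3 lower members (Mrpl44, Mrpl47 and Mrpl22) and a median of -0.35. Mrpl23, which stands at the tunnel exit, was the member with the least RNA, with 30.7, 61.8 and 33.3 scaled reads in the cultures labelled c-kitCre and 36.5, 43.8 and 26.2 in those labelled wild-type.

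In the small subunit 19 of 26 members were lower and 1 was higher, with a median log2 difference of -0.96. Mrps2, a protein of the bacterial-type core, led the falls. Mrps2 (chromosome 2, 28468066 to 28471178, plus strand) had 469, 313 and 518 scaled reads in the cultures labelled c-kitCre and 2295, 1775 and 1696 in those labelled wild-type, a difference of -2.17 ± 0.23 (limma, adjusted p = 0.0010). The other steep falls among its 16 proteins with a bacterial counterpart were even across cultures. Mrps7, a protein of the head, had 917, 917 and 816 scaled reads in the cultures labelled c-kitCre and 3027, 2594 and 2586 in those labelled wild-type (-1.63 ± 0.12). Mrps17 had 1162, 1161 and 1058 in the cultures labelled c-kitCre and 3606, 3185 and 3004 in those labelled wild-type (-1.53 ± 0.12). Mrps5, which lies near the entry of the messenger RNA, had 1219, 1221 and 1056 in the cultures labelled c-kitCre and 3670, 3208 and 3060 in those labelled wild-type (-1.51 ± 0.12). In each of these genes the c-kitCre mean was between 32.3% and 35.2% of the wild-type mean. With them, 11 of the 16 were lower.

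Of the 10 small-subunit proteins found only in mitochondria, 8 were lower, 1 was higher and 1 passed no threshold, with a median of -1.11. Mrps27, a pentatricopeptide repeat protein, had 317, 292 and 286 scaled reads in the cultures labelled c-kitCre and 976, 868 and 850 in those labelled wild-type (-1.59 ± 0.13; limma, adjusted p = 0.000381). Mrps18b had 422, 450 and 400 in the cultures labelled c-kitCre and 1590, 1540 and 1473 in those labelled wild-type (-1.86 ± 0.11). It had the smallest adjusted p of the members, 0.000161 (limma). The replicates of each group lay close together beside the distance between the groups.

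The Mrps18 family has 3 mammalian genes for proteins related to bacterial S18, which sit at different places of the ribosome. All 3 were lower, Mrps18b by the most. Mrps18a, which is built into the large subunit in spite of its symbol, had 658, 709 and 600 scaled reads in the cultures labelled c-kitCre and 1393, 1195 and 1145 in those labelled wild-type (-0.92 ± 0.13; limma, adjusted p = 0.0030). Mrps18c had 639, 513 and 520 in the cultures labelled c-kitCre and 1014, 954 and 883 in those labelled wild-type (-0.78 ± 0.14; adjusted p = 0.0071). Mrps30, likewise a large-subunit protein, had 804, 811 and 702 in the cultures labelled c-kitCre and 999, 965 and 987 in those labelled wild-type. Its groups did not overlap, yet with a difference of -0.35 ± 0.11 it missed the threshold (limma, adjusted p = 0.055). Mrps36 had 234, 260 and 245 in the cultures labelled c-kitCre and 410, 283 and 300 in those labelled wild-type, and its difference of -0.41 ± 0.20 did not pass either (adjusted p = 0.16).

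**Figure D2:**
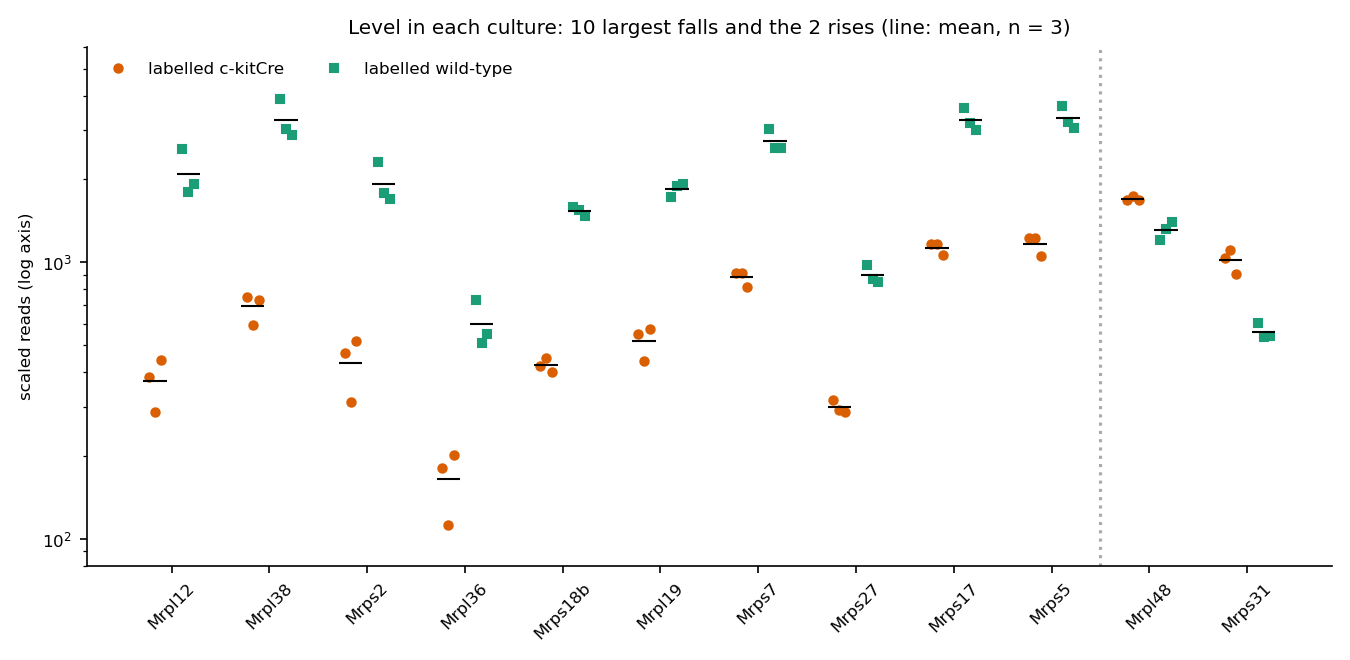
Scaled reads (log axis) of the 10 members with the largest falls and of the 2 higher members, right of the dotted line, in each culture labelled c-kitCre (orange circles, left of each pair) and wild-type (green squares); lines are means of 3 cultures. The groups are apart in all 12 genes, and the gap is widest for Mrpl12, with means of 371 in c-kitCre and 2092 in wild-type.

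Against this direction, 2 members were higher. Mrps31, a small-subunit protein of the head found only in mitochondria, had 1034, 1106 and 906 scaled reads in the cultures labelled c-kitCre and 603, 539 and 543 in those labelled wild-type. Mrps31 (chromosome 8, 22411361 to 22429665, plus strand) thus lay higher in every c-kitCre culture, by 0.85 ± 0.13 on the log2 scale (limma, adjusted p = 0.0038), and it was called higher under each of the 17 alternatives (adjusted p between 0.000773 and 0.0293). Mrpl48, a protein of the central protuberance, had 1672, 1741 and 1673 in the cultures labelled c-kitCre and 1201, 1322 and 1394 in those labelled wild-type. Its difference of 0.38 ± 0.11 passed narrowly (limma, adjusted p = 0.035). Without the culture wild-type 2 the adjusted p was 0.098, without wild-type 3 it was 0.063, without c-kitCre 1 it was 0.076 and without c-kitCre 3 it was 0.068. With the replicate block it was 0.078, and the call was also lost under the filter at a mean of 10, each pseudocount, scaling to summed raw values, median centring over all genes tested and limma without the trend. The call on Mrpl48 thus depends on single cultures and on the processing.

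Among the 26 members past no threshold, 9 still had every c-kitCre culture below every wild-type culture, and Mrpl34 had every one above. Over all members the groups were apart downwards in 57 genes, apart upwards in 3 and overlapping in 16. Of all genes tested, 27.0% were apart downwards and 26.1% upwards. Of the 13456 genes averaging at least 50 scaled reads, 5129 were apart downwards and 3492 upwards. Mrpl15, Mrpl9, Mrps21, Mrps30 and Mrpl27 lay just outside the threshold, with adjusted p between 0.052 and 0.056, and Mrpl55 just inside at 0.047. Mrps21, a small-subunit protein with a bacterial counterpart, had 728, 832 and 750 scaled reads in the cultures labelled c-kitCre and 1572, 980 and 1075 in those labelled wild-type. Its wild-type values were spread more widely than the c-kitCre values. Its transcript is also more than 95% identical over 54.1% of its length to the processed pseudogene Gm6181, so its reads could be split between the genes. The same kind of copy exists for Mrpl22 and Mrpl27.

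In scaled reads, the cultures within a group did not contribute evenly. Wild-type 1 was the highest of the wild-type cultures in 68 of 76 members, or 89.5%, while it was the highest in 59.3% of the genes averaging at least 50. c-kitCre 3 was the lowest of its group in 46 members, or 60.5%, beside 37.8% of the genes averaging at least 50. c-kitCre 2 was the highest of its group in 42 members, or 55.3%, beside 41.6% of those genes. This order did not hold for the summed members as a share of all scaled reads, in the parts given above. By that share, c-kitCre 3 was the highest of its group (1915) and c-kitCre 2 the lowest (1787). The shares of wild-type 1, 2 and 3 lay close together, at 3203, 3180 and 3152. The part of each culture's total in the order by scaled reads was not tested. The median coefficient of variation over members was 10.6% in the cultures labelled c-kitCre and 14.5% in those labelled wild-type. When wild-type 1 was left out, 49 members were lower and 3 were higher. Over the 6 fits that each leave out 1 culture, the count of lower members ran from 42 to 51, and 40 members were lower in every one of the 17 alternatives.

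**Figure D3:**
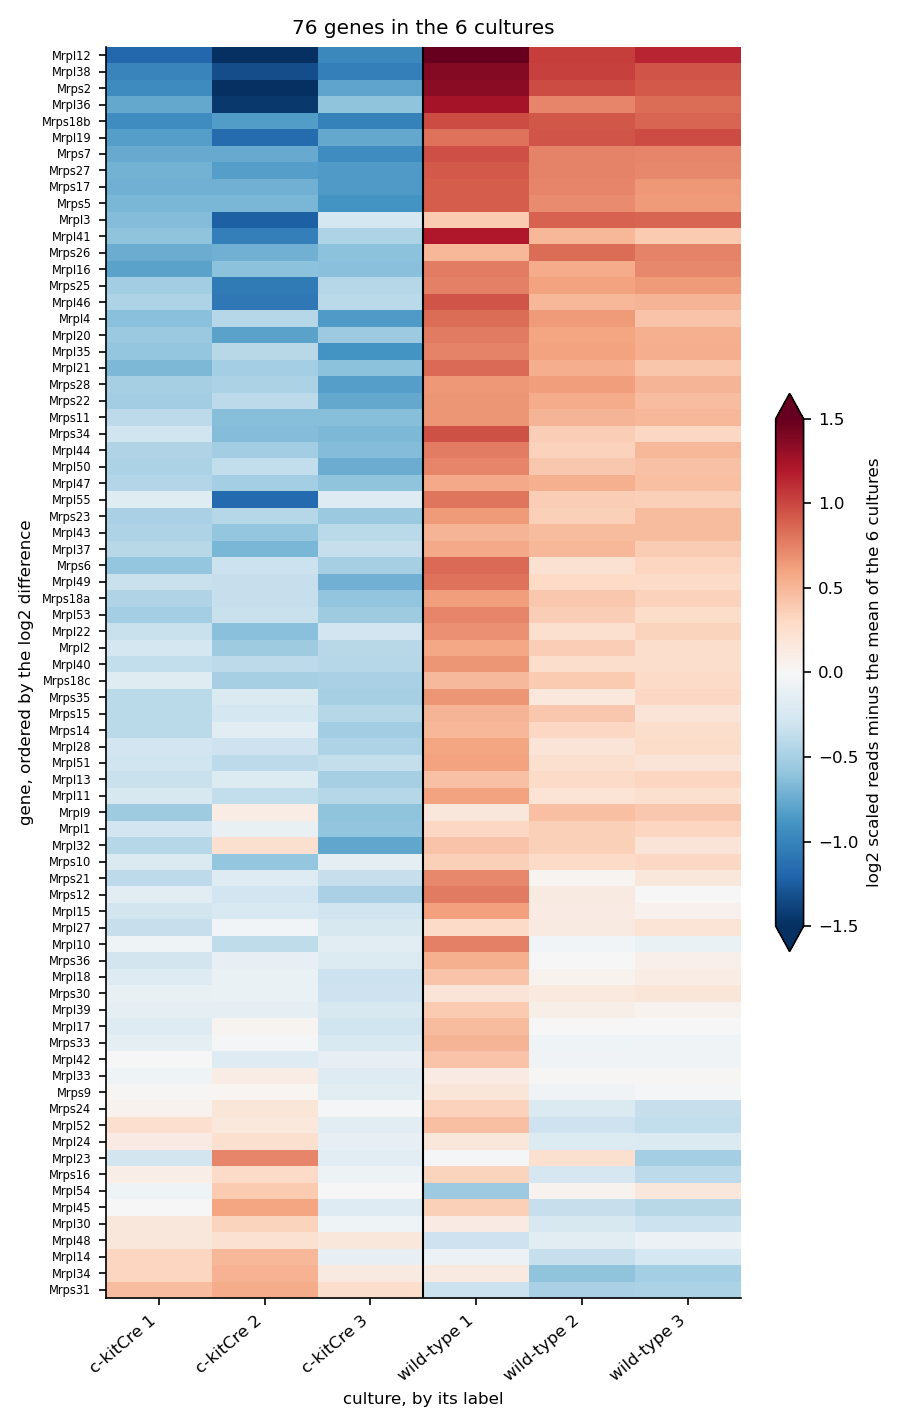
Each row is a member, ordered by its log2 difference, and each column a culture, c-kitCre at the left and wild-type at the right; the colour is the log2 scaled reads minus the mean of the 6 cultures. Blue fills most of the c-kitCre columns and red the wild-type columns, with the order turned round in the lowest rows. Wild-type 1 is the highest of the wild-type cultures in 68 of 76 rows.

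Per kilobase of the longest annotated transcript, the level of the 75 members with an annotated length had a median of 350 scaled reads per kilobase in the cultures labelled c-kitCre, against 613 in those labelled wild-type. In the small subunit Mrps21 was highest in both groups, at 1578 ± 112 per kilobase in the cultures labelled c-kitCre and 2477 ± 652 in those labelled wild-type. The next places differed between the groups. In the cultures labelled c-kitCre they went to Mrps18c (679 ± 86.9) and Mrps15 (639 ± 39.98), which did not differ beyond their spread. Mrps33 (626 ± 41.2) and Mrps24 (618 ± 46.0) lay within the same spread, and Mrps7 was at 450 ± 29.9. In the cultures labelled wild-type the next places went to Mrps18b (1422 ± 54.5) and Mrps7 (1394 ± 129), ahead of Mrps18c (1159 ± 79.6). Mrps18b and Mrps7 did not differ beyond their spread either. In the large subunit the cultures labelled c-kitCre had Mrpl54 (1467 ± 260), Mrpl24 (1318 ± 170), Mrpl34 (1184 ± 157) and Mrpl28 (1174 ± 78.9) at the top, with spreads that overlapped, and Mrpl38 at 491 ± 61.2. The cultures labelled wild-type had Mrpl38 (2317 ± 383) and Mrpl28 (1923 ± 289) at the top, with spreads that overlapped. Mrpl12 (1590 ± 321) and Mrpl20 (1558 ± 139) overlapped with Mrpl28 in spread and, among others, lay above Mrpl54 at 1274 ± 311. The order of members depends on the length used, with a Spearman correlation of 0.43 between the orders by transcript and by coding length over 75 genes. Across genes, the log2 level per kilobase of a member and its log2 difference had a Pearson r of -0.01 (75 genes, which share the same cultures).

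**Figure D4:**
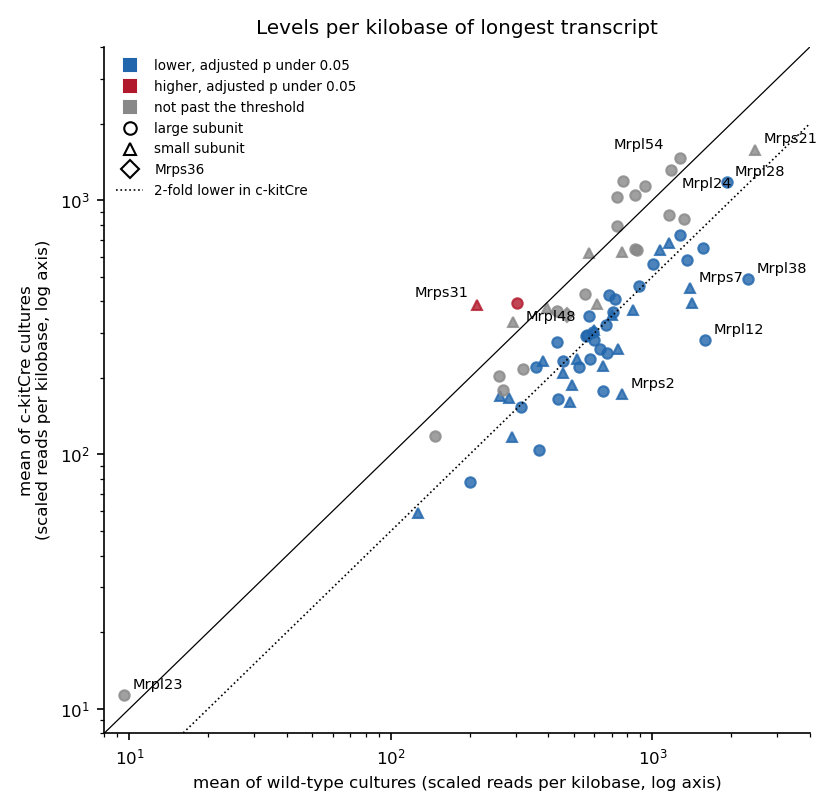
Mean level per kilobase of longest transcript of 75 members in the cultures labelled c-kitCre (vertical, log axis) against those labelled wild-type (horizontal, log axis), with the line of equal levels and the dotted line of 2-fold lower levels in c-kitCre. The points lie mostly between and below these lines over the whole range, Mrpl12, Mrpl38 and Mrps2 are farthest below, and Mrps31 and Mrpl48 are above the line of equal levels.

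The promoters of members that moved together, and of the clearest exception, are shown to let their sequences be compared. Each window covers 250 bases before to 50 after the RefSeq start of the gene (GRCm38.p6), in the direction of the gene. Capitals mark letters of the searched motifs: GCATGCGC for NRF1, CCGGAAG for the ETS family that includes GABPA, and AAGATGGCG for YY1, factors known to bind promoters of nuclear genes for mitochondrial proteins, each on either strand, and TATAAA for the TATA box. The windows of Mrpl12 (chr11:120484387-120484686, plus strand) and Mrps31 (chr8:22411090-22411389, plus strand) hold none of these letters. The window of Mrpl36 (chr13:73330759-73331058, plus strand) holds the YY1 letters on the opposite strand, and that of Mrps18b (chr17:35916391-35916690, minus strand) holds the NRF1 letters at 2 places and the ETS letters on the opposite strand at its end. The window of Mrps2 (chr2:28467816-28468115, plus strand), which fell more than Mrpl36 and Mrps18b, is not printed and holds none of these letters either. Mrpl38 has no window in the table.
Mrpl12: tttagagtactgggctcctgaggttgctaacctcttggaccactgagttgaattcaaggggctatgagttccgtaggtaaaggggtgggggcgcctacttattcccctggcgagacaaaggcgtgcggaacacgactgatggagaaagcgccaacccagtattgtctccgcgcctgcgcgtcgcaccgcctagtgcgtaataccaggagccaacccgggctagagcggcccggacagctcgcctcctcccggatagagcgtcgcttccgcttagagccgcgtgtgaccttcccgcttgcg
Mrpl36: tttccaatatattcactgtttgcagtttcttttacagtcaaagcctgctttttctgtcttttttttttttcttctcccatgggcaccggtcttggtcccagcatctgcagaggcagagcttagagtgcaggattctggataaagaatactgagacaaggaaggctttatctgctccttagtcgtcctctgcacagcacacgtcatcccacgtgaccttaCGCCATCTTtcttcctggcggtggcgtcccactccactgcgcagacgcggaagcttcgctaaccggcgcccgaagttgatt
Mrps18b: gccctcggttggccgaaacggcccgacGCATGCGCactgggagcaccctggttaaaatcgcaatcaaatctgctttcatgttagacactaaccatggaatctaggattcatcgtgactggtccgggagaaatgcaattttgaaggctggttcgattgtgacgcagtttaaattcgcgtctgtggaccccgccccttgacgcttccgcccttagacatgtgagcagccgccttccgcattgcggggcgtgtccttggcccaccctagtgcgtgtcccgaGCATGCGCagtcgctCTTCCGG
Mrps31: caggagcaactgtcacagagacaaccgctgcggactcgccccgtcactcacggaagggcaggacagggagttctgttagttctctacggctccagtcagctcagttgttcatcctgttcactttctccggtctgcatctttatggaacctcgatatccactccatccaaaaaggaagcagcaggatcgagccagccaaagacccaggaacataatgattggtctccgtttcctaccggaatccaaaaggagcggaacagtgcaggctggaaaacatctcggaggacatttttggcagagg

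Windows were found for 67 of the 76 members. The ETS letters stood in 24 of them, or 35.8%, beside 20.2% of the windows of genes averaging at least 50 scaled reads and 15.5% of those of all genes tested. The NRF1 letters stood in 8 windows, or 11.9%, beside 6.17% and 4.82% in the same sets. The YY1 letters also stood in 8 windows, or 11.9%, beside 3.72% and 2.69%. The TATA letters were in 5 member windows, or 7.46%, beside 8.72% and 10.9%. By change, the ETS letters were in 13 of 41 windows of lower members and in 11 of 26 windows of the others, and the NRF1 letters in 2 of 41 and 6 of 26. The YY1 letters were in 6 of 41 windows of lower members and in 2 of 26 of the others. No member window had ETS and YY1 letters that share bases.

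Many members start head to head with another gene. Of 75 annotated members, 22 (29.3%) had a start on the opposite strand within 1000 bases, beside 8.22% of 20466 protein-coding genes and 12.4% of those with a mean of at least 50. Of the 22 members in these pairs, 16 were lower and none was higher. Of the 22 partners, 11 were lower, 3 were higher and 8 passed no threshold. Among all genes averaging at least 50, 29.2% were lower and 19.4% were higher. In 10 pairs member and partner were both lower, and a link between the genes of a pair was not tested. Mrps27 shares its start region with Ptcd2, a mitochondrial RNA-processing gene of the pentatricopeptide repeat family, which averaged 304 scaled reads in the cultures labelled c-kitCre and 857 in those labelled wild-type. Mrps18b faces Ppp1r10, a regulatory subunit of a nuclear phosphatase, at a mean of 1133 in c-kitCre and 3020 in wild-type. Mrpl36 faces Ndufs6, a subunit of respiratory complex I, at 403 in c-kitCre and 714 in wild-type. The GENCODE start of Mrpl36 used for this pair (73328513) lies upstream of the RefSeq window printed above. That window therefore does not cover the start region of this pair. In other pairs the genes moved apart: beside the lower Mrpl51, the condensin gene Ncapd2 averaged 10715 in c-kitCre and 6582 in wild-type (0.71 ± 0.15; limma, adjusted p = 0.012), and beside the lower Mrpl2, the kinesin light chain gene Klc4 averaged 543 in c-kitCre and 211 in wild-type (1.29 ± 0.34; adjusted p = 0.027).

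In 16 members the exons overlap those of another gene by at least 10% of their length, among them Mrpl12, Mrpl19, Mrps18b and Mrps27 of the largest falls, so that their reads cannot be assigned with certainty. Of these 16, 11 were lower. Of the other 60, 37 were lower and 2 were higher. The authors' deposited table of genes with at least a 2.50-fold difference held 15 members, all of them higher in wild-type, with the authors' folds of wild-type over c-kitCre between 2.52 for Mrps25 and 5.65 for Mrpl12. In that table as a whole, 2225 of 4528 genes were higher in wild-type and 2303 in c-kitCre.

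Related genes that build or serve the mitochondrial ribosome were compared in the same fit. Over 6 lists with 113 different genes tested, 63 were lower and 9 were higher, with a median log2 difference of -0.68. Leaving out wild-type 2 brought the lower count to 37. In the main fit, 19.3% of all genes tested were lower and 16.2% were higher. Among the genes averaging at least 50, 29.2% were lower and 19.4% were higher. The ribosomal proteins with other symbols were mixed, with 2 of 7 lower (28.6%) and 1 higher (14.3%), near the shares of genes averaging at least 50. Ptcd3, a pentatricopeptide repeat protein of the small subunit, had 1965, 1408 and 1722 scaled reads in the cultures labelled c-kitCre and 7056, 5477 and 5012 in those labelled wild-type (-1.78 ± 0.19). Gadd45gip1, a large-subunit protein also called CRIF1, had 2813, 3118 and 2399 in the cultures labelled c-kitCre and 1802, 1589 and 1584 in those labelled wild-type (0.74 ± 0.14). With each culture centred on the median of all genes tested its difference was 0.38 and passed no threshold (limma, adjusted p = 0.0761). Ict1, a hydrolase built into the large subunit that frees stalled chains, was lower at -1.35 ± 0.17, and Chchd1 of the small subunit, at -0.35 ± 0.13, passed no threshold.

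Of 30 assembly genes tested, 17 were lower (56.7%) and 1 was higher (3.33%), with a median of -0.83. Fastkd2, which binds the large-subunit RNA, had 496, 461 and 513 scaled reads in the cultures labelled c-kitCre and 1931, 2186 and 2168 in those labelled wild-type (-2.10 ± 0.11; limma, adjusted p = 0.000127). Rnmtl1, a methyltransferase of that RNA, differed by -2.16 ± 0.24, and Rbfa, a maturation factor of the small subunit, by -1.40 ± 0.13. Spg7, a subunit of the inner-membrane protease that matures Mrpl32, was the exception, at 2608, 2447 and 2309 in the cultures labelled c-kitCre and 1095, 1161 and 1129 in those labelled wild-type (1.12 ± 0.10). Mrpl32 itself passed no threshold, at -0.65 ± 0.27.

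Of 19 translation factors tested, 8 were lower (42.1%) and 1 was higher (5.26%), with a median of -0.54. Gfm1, an elongation factor, had 1203, 937 and 1115 scaled reads in the cultures labelled c-kitCre and 3257, 2941 and 2818 in those labelled wild-type (-1.47 ± 0.13). Taco1, an activator of translation of a cytochrome oxidase subunit, differed by -1.998 ± 0.24 and Letm1, an inner-membrane ion exchanger linked to the ribosome, by -1.87 ± 0.20. Of 20 genes for mitochondrial transcription, DNA and RNA processing, 14 were lower (70.0%) and none was higher, with a median of -0.78. Among them Tfb2m, the factor that opens mitochondrial promoters, differed by -1.62 ± 0.12, Top1mt, a mitochondrial topoisomerase, by -1.48 ± 0.11, Trmt10c, a subunit of mitochondrial RNase P, by -1.90 ± 0.15, and Ptcd2 by -1.49 ± 0.13.

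Of 14 regulators of mitochondrial biogenesis, 7 were lower and 1 was higher, with a median of -0.42. Pprc1, a coactivator of the same family as PGC-1, had 657, 389 and 813 scaled reads in the cultures labelled c-kitCre and 2001, 3459 and 3630 in those labelled wild-type (-2.31 ± 0.35). Gabpb2, a partner of GABPA, differed by -0.98 ± 0.12 and Max, the partner of Myc, by -0.80 ± 0.12. Mycn was higher, at 64.95, 35.7 and 73.5 in the cultures labelled c-kitCre and 2.28, 0.82 and 1.31 in those labelled wild-type, below the floor of 4.41 scaled reads of the normalized values. Of 24 genes for import, membranes and matrix, 16 were lower (66.7%) and 5 were higher (20.8%), with a median of -0.83. The higher share was near the 19.4% of genes averaging at least 50. Immt, which shapes the cristae, differed by -1.53 ± 0.15, Samm50 of the outer-membrane assembly machinery by -1.29 ± 0.13, the electron carrier Cycs by -2.11 ± 0.23 and the chaperonin Hspd1 by -1.12 ± 0.13. The higher members of that list were Timm17b, Tomm20 and the channel genes Vdac1, Vdac2 and Vdac3, named after their values were seen.

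**Figure D5:**
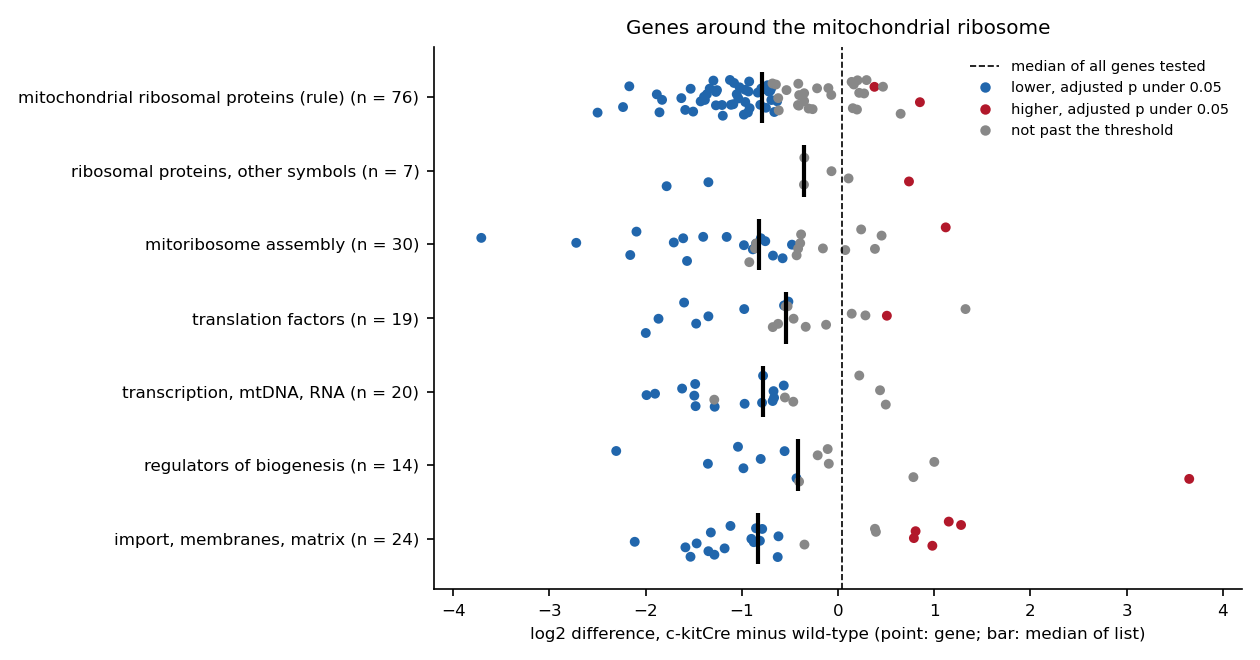
Log2 difference, c-kitCre minus wild-type, of each gene (point) in the mitochondrial ribosomal protein set and in 6 lists of related genes, with the list's median (bar) and the median of all genes tested (dashed line). The medians lie between -0.83 and -0.35 in the related lists and at -0.79 for the 76 members, left of the 0.04 of all genes tested.

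The respiratory chain and ATP synthase subunits encoded in the nucleus had 22 lower (26.5%) and 2 higher (2.41%) of 83, with a median of -0.13. Their lower share and median were near those of the genes averaging at least 50 (29.2% lower, 19.4% higher, median -0.14). The cytosolic ribosomal proteins had 11 higher (13.6%) and 1 lower (1.23%) of 81, with a median of 0.35. Over all genes tested, 19.3% were lower and 16.2% were higher, and over those averaging at least 50, 29.2% and 19.4%. These are counts from the same fit, and the difference between the sets was not tested.

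Markers of other cell types and of proliferation were counted by the same call. Of all genes tested, 16.2% were higher and 19.3% were lower. Of the genes averaging at least 50, 19.4% were higher and 29.2% were lower. The higher shares of the proliferation (20.8%), endothelial (23.1%) and cardiomyocyte (22.2%) lists lay near these. Their lower shares were 45.8%, 0% and 11.1%. All 9 fibroblast markers tested were higher in the cultures labelled c-kitCre, and their list summed to 305692 to 390735 scaled reads in c-kitCre and to 79183 to 103375 in wild-type. Of 24 proliferation genes, 11 were lower and 5 were higher, and their sums ran from 157989 to 191866 in c-kitCre and from 142400 to 186758 in wild-type. Of these, Pcna, the sliding clamp of DNA replication, was lower, at means of 4144 ± 573 in c-kitCre and 12373 ± 2119 in wild-type, and Top2a, a DNA topoisomerase, was higher, at 46826 ± 8003 in c-kitCre and 25276 ± 6739 in wild-type. Of 9 cardiomyocyte genes tested, 2 were higher and 1 was lower. Ryr2, the calcium release channel, was higher at 19.4 ± 8.20 in c-kitCre and 2.85 ± 0.93 in wild-type, and Pln, an inhibitor of the calcium pump, at 117 ± 83.2 in c-kitCre and 29.8 ± 2.48 in wild-type. The wild-type mean of Ryr2 lay below the floor of 4.41 scaled reads. The lower gene was Tnnt2, with 124, 124 and 120 in c-kitCre and 3608, 1458 and 1517 in wild-type. The list summed to 721 to 908 in c-kitCre and to 2192 to 4107 in wild-type, and most of the wild-type sums was Tnnt2. Of 13 endothelial genes 3 were higher and none was lower, and their sums ran from 3730 to 4677 in c-kitCre and from 3198 to 4204 in wild-type. Of 7 leukocyte genes tested 3 were higher and 1 was lower, with sums of 357 to 631 in c-kitCre and 197 to 215 in wild-type. Of the mast cell genes, Cpa3, Mcpt4 and Ms4a2 were at 0 in all 6 cultures, 2 were tested and 1 was lower, and the list summed to 414 to 501 in c-kitCre and 1016 to 1152 in wild-type. The part of these cell types in the lower level of the mitochondrial ribosomal proteins was not tested.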

How the data were processed

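Total RNA of 6 cultures was sequenced after depletion of ribosomal RNA as paired reads of 100 bp, per the labels' protocols. The submitters' processing notes name DESeq and build mm10; the aligner, the annotation, any use of strand and the merging of 2 libraries into a single value were not given in the sources used here. The deposited raw values, treated as a signal, are not whole numbers and were not tested as counts. The normalized column of the authors holds log2 values. As worked out from the numbers themselves, these are log2 scaled reads (raw value multiplied by the culture's factor) with a floor at 4.41, from which a constant for each gene had been subtracted; that constant was added back here. The authors' deposited fold column is a signed score, positive where wild-type is higher.

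The comparison of 3 with 3 cultures was a two-sided test in limma 3.58.1 under R 4.3.3 (eBayes, trend, no covariates, 4 residual degrees of freedom). Adjustment was by Benjamini-Hochberg over the 24151 genes that averaged at least 1 scaled read and left the floor in some culture. The members and lists were chosen with earlier results of these data known. Named genes are Kit, up to 10 called members with the largest rises and falls, the 3 members of each subunit with the highest level per kilobase, the Mrps18 family, Mrps30 and Mrps36, and up to 4 genes with the smallest p per related list; others are given as ranges, counts or examples of a role, chosen with their values known. Coordinates and lengths come from GENCODE M21 (32874 gene IDs matched, 75 of 76 members) and promoters from RefSeq. Overlap of exons, head-to-head starts and copies (at least 95% identity over 50% of a transcript, found with blastn 2.17.0) come from the same annotation. Other work used matplotlib 3.10.9, scipy 1.17.1, numpy 2.4.6 and pandas 2.3.3 under Python 3.11.15. The 17 alternatives were other filters and pseudocounts (0.1, 1 and 5), quantile normalization, 2 median centrings, scaling to summed raw values, a block for the culture number, limma without the trend and leaving out each culture. The depth per culture, 22371439 to 35963488 summed raw values, merges libraries, so no counting interval is given.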

Additional observations from a re-analysis of the deposited data

How the results depend on the processing

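The count of lower members stayed within 1.5 times its value of 48 under all 17 alternatives (42 to 64), and leaving out each culture gave 42 to 51. The count of higher members is small, and it was 1 under the filter at a mean of 10, the pseudocounts 0.1, 1 and 5, median centring over all genes tested, the replicate block and limma without the trend. It was 5 under quantile normalization and under centring on genes averaging at least 50, 4 with scaling to summed raw values, and 1 to 3 when each culture was left out; Mrpl48 accounts for the loss, and Mrpl14, Mrpl30 and Mrpl34 are those gained under quantile normalization. The members' median of -0.79 became -0.58 (quantile), -1.14 (centring on all genes) and -0.57 (centring on a mean of at least 50); leaving out a culture gave -0.85 to -0.71. For the related genes these medians were -0.48, -1.03 and -0.46, against -0.68. Their higher count of 9 became 5 with centring on all genes and 15 with centring on a mean of at least 50, and 6 to 11 when each culture was left out. Their lower count of 63 became 37 without wild-type 2, and leaving out each culture gave 37 to 61. Mrpl54 turned to -0.13 with centring on all genes. These centrings shift every gene by construction, and other causes were not tested. Over the 43 genes named by the rule given above, 703 of 731 values kept their direction and side of the threshold, 13 lost the call, 14 gained it and 1 turned. Genes given only as examples are not in this count. Mrpl55 is such a gene, and it lost its call when any of the wild-type cultures was left out.

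The labels do not say whether culture numbers pair the samples, and correlations this small cannot decide it. Same-numbered cultures deviated together with correlations of 0.07, -0.02 and 0.16. c-kitCre 1 and c-kitCre 3 each correlated best with the wild-type culture of the same number, whereas c-kitCre 2 correlated best with wild-type 1 (0.05). The replicate block gave 49 lower members and 1 higher, with 59 lower and 9 higher related genes.

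With 3 cultures per group and levels known only as merged values, small differences were called in part: uncalled members had log2 differences between -0.68 (Mrpl9) and 0.65 (Mrpl34). The labels against Kit, the cultures' unknown origin and the unknown use of strand limit every direction given.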
